A study of Mus musculus with 2 samples.

Results

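The insulin-like growth factor (IGF) family was examined in fat of C57BL/6 mice, an inbred strain, whose adipose tissue was sampled after they had received either a normal diet (CE-2) or a high fat diet (HFD32) meant to induce obesity. Feeding ran from 6 to 18 weeks of age, and the tissue was taken at 18 weeks. Each diet was measured on 1 Affymetrix array hybridised with RNA pooled from 3 animals, so there are no replicates, the spread between animals is unknown, and no test between the diets was possible. No source used here names the fat depot or the sex of the animals. The arrays are called the CE-2 array and the HFD32 array after the diets. The family was taken as 10 genes out of 18193 genes with a probe set of a single gene symbol: the ligands Igf1 and Igf2, the receptors Igf1r and Igf2r, and the binding proteins Igfbp2, Igfbp3, Igfbp4, Igfbp5, Igfbp6 and Igfbp7. Together they had 28 probe sets on the array.

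IGF-I and IGF-II are secreted peptides related to proinsulin. They signal through the IGF-I receptor, a tyrosine kinase akin to the insulin receptor, whereas the IGF-II receptor takes up IGF-II for degradation and carries lysosomal enzymes tagged with mannose 6-phosphate. In extracellular fluid the ligands are held by binding proteins, which store them, shield them from the receptor or deliver them, and which proteases can cut to set the ligand free. In fat, IGF-I is made by adipocytes, stromal cells and macrophages and acts on the growth and differentiation of preadipocytes.

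Values are log2 signals, and a difference is the high fat diet value minus the normal diet value, so that 1 is a 2-fold ratio. A gene is described by its brightest probe set (the highest mean of both arrays) and was compared if that mean reached the floor of 5.44, the median of all probe sets, which 11778 genes did. All 10 family members passed this floor. Signals under 4.92 on the CE-2 array or 4.95 on the HFD32 array lie within background, the 95th percentile of 83 probe sets of olfactory, vomeronasal and taste receptor genes. The only error at hand is that between probe sets of 1 gene, an SD of 0.27 over 5131 genes. It covers the probes alone and not the animals, the dissection or the hybridisation.

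Most of the IGF family lay lower on the HFD32 array. By the brightest probe set 9 of the 10 genes were lower and 1, Igf2r, was higher, with differences from -1.40 to 0.37 and a median of -0.48. Across all 11778 genes the median was 0 and 49.3% were lower. By the same count 49.9% were higher. At 2-fold, 1 of the 10 genes was lower (Igfbp2) and 0 were higher, where 3.29% of all genes were lower and 3.28% were higher. The other 8 lower members therefore differed by less than 2-fold. Of the 25 family probe sets above the floor, 20 were lower and 5 higher, though probe sets of 1 gene are not separate genes. Taking the median over a gene's probe sets in place of the brightest one, the family median was -0.18 over the 9 genes still above the floor, and Igf1r (-0.04), Igf1 (0.03) and Igfbp7 (0.08) lay near 0.

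**Figure D1:**
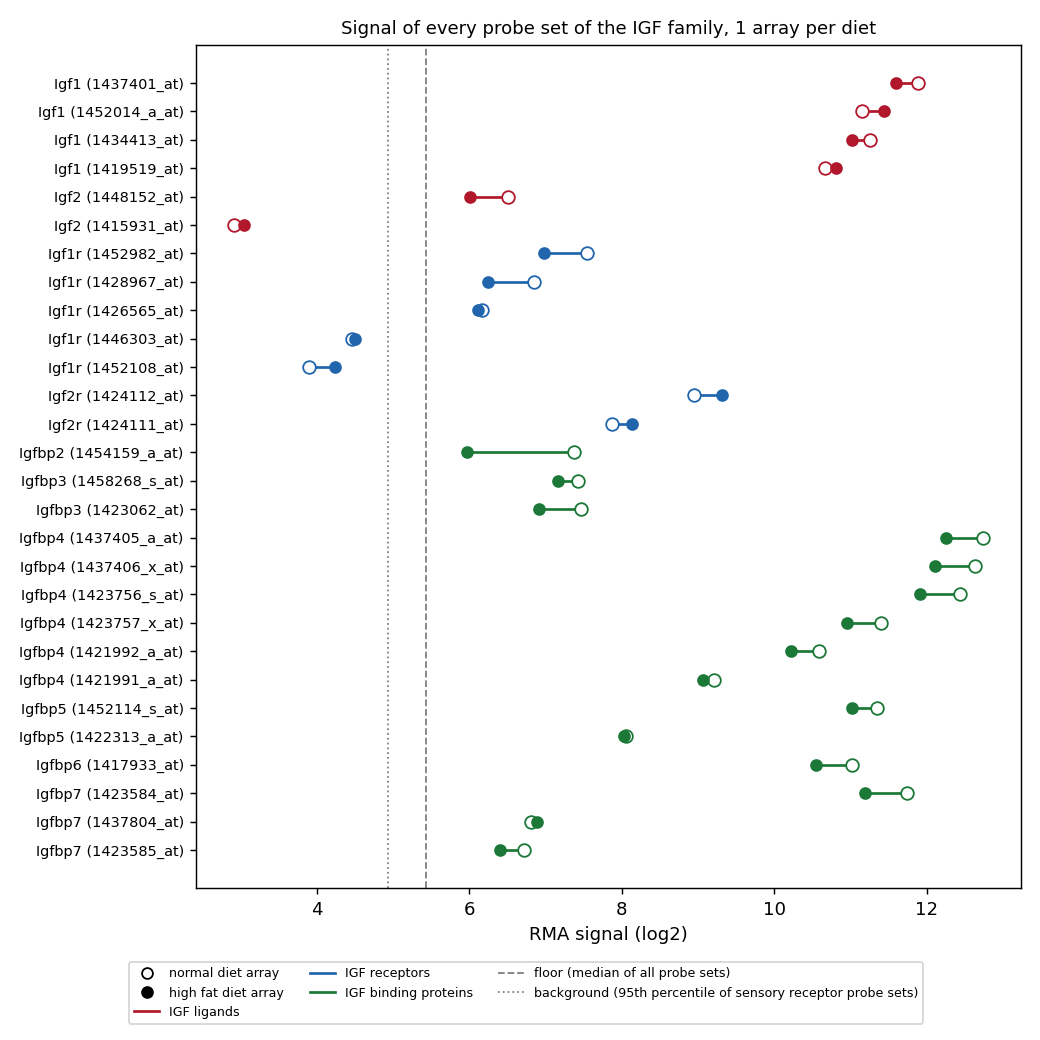
Log2 RMA signal of all 28 probe sets of the 10 genes on the CE-2 (normal diet) array (open circles) and the HFD32 (high fat diet) array (filled circles), coloured by role, with the floor dashed and the background dotted. In the binding proteins the filled circle lies left of the open one in 14 of 15 probe sets, while the 4 Igf1 probe sets go both ways and both Igf2r probe sets go right.

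The plot of signals by probe set shows that the ligands did not share a common pattern. Igf1 had signals of 11.89 on the CE-2 array and 11.60 on the HFD32 array by its brightest probe set, a difference of -0.29. Its 4 probe sets disagreed in sign, with -0.29 and -0.24 on one side and 0.30 and 0.13 on the other, a mean of -0.03 ± 0.29 (SD over 4 probe sets). The direction of Igf1 thus depends on the probe set, and 20.5% of all genes had a difference at or below that of its brightest one. Macrophage markers, which mark a cell type that makes IGF-I, were higher on the HFD32 array in 14 of 15 genes with a median of 0.69, and their summed signal was 14.28 and 15.12 on the log2 scale. The part of these cells in the Igf1 signal was not tested.

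Igf2, the growth factor of fetal life whose gene is expressed from the paternal allele, had 6.51 and 6.01 by its only probe set above the floor, a difference of -0.50. Its other probe set lay within background on both arrays, at 2.91 and 3.04, and shows no difference to read. Among all genes 11.0% had a difference at or below -0.50, and 15.3% of the 2143 genes within 0.5 of its level.

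The receptors stood on opposite sides. Igf1r, the signalling receptor, had 7.54 on the CE-2 array and 6.98 on the HFD32 array, 1.47-fold lower. The next probe set had 6.85 and 6.25, and the dimmest above the floor 6.16 and 6.12. All 3 were lower, by a mean of -0.40 ± 0.31 (SD over 3 probe sets), but the dimmest differed by only -0.04. The remaining 2 Igf1r probe sets lay within background on both arrays.

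Igf2r was the only family gene with a higher brightest probe set on the HFD32 array. It had 8.95 and 9.31, a difference of 0.37 or 1.29-fold, and its other probe set had 7.87 and 8.13, a difference of 0.26. Both probe sets pointed the same way, and 84.5% of all genes had a difference at or below 0.37. Ctsd, which encodes the lysosomal protease cathepsin D, a cargo of this receptor that can also cut IGF binding proteins, had 12.15 and 12.89 and was 1.67-fold higher. The markers of macrophages, cells rich in lysosomes, had the median of 0.69 given above, and their part in either value was not tested. Airn, the antisense RNA that overlaps Igf2r and silences it on the paternal allele in development, went the other way, with 7.01 and 6.40 on its brightest probe set and 6.51 and 5.87 on the other above the floor. A further probe set is annotated to Airn and Igf2r together and was left out of both genes.

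All 6 binding proteins were lower on the HFD32 array by their brightest probe set, with a median of -0.48, and 5 of 6 by the median over a gene's probe sets, where Igfbp7 had 0.08. Their differences ran from -1.40 to -0.27, and 21.7% of all genes had a difference at or below -0.27. Counted by probe set, 14 of 15 were lower and 1, of Igfbp7, was higher. Counted by gene, 49.3% of all were lower, and no share over all probe sets was computed. Probe sets of 1 gene are not separate genes, and Igfbp4 alone had 6 of the 15.

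Igfbp2 was the family gene farthest from 0. IGFBP-2 is secreted by preadipocytes and by liver and binds both ligands. Its signal was 7.37 on the CE-2 array and 5.97 on the HFD32 array, a difference of -1.40 or 2.64-fold lower. In comparison, 1.88% of all genes had a difference at or below it, and 3.25% of the 2244 genes whose mean level lay within 0.5 of its own. Igfbp2 has a single probe set here, so the value has no second measurement on these arrays. Hepatocyte markers differed between the arrays in the same direction. Of 14 hepatocyte markers above the floor 12 were at least 2-fold lower on the HFD32 array, with a median of -5.02, or -4.32 with signals within background, which 4 of the 14 had on that array, raised to it. The summed signal of the 15 measured was 15.73 and 14.71 on the log2 scale. Most of the HFD32 sum came from Hp, with 13.70 and 14.02, and Cyp2e1, with 13.81 and 13.23. The sum therefore does not describe the other hepatocyte markers. None of the 15 lay within background on the CE-2 array and 5 did on the HFD32 array. The part of liver RNA in the Igfbp2 value was not tested. In bulk tissue, fewer cells of a type and less RNA per cell cannot be told apart.

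Igfbp4, whose product mainly inhibits IGF action and which fat expresses strongly, was lower on every one of its probe sets. Its brightest probe set had 12.73 and 12.24, a difference of -0.49. The 6 differences lay between -0.53 and -0.14, with a mean of -0.42 ± 0.15 (SD over 6 probe sets). By the platform annotation they fall into 3 pairs, each designed on 1 sequence record, so they are not independent measurements. Like Igf1, Igfbp5, Igfbp6 and Igfbp7, the gene ranked lower among genes of like brightness than among all. For Igfbp4, 11.2% of all genes had a difference at or below -0.49, and 5.51% of the 236 genes within 0.5 of its level.

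Igfbp7, whose product binds IGFs weakly and is abundant in vessel walls, had 11.74 and 11.19 by its brightest probe set, a difference of -0.56. Its 2 dimmer probe sets had 6.72 and 6.40, and 6.81 and 6.89, so 1 of the 3 was slightly higher at 0.08. Beside it, all 12 endothelial markers were lower on the HFD32 array, with a median of -0.56, none of them by 2-fold, and a summed signal of 12.62 and 12.12 on the log2 scale. The part of endothelial RNA in the Igfbp7 value was not tested.

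Igfbp6, which encodes a binding protein with a preference for IGF-II, had 11.02 and 10.55 by its only probe set, 1.39-fold lower. Mesothelial markers were lower in 9 of 9 genes, 5 of them by at least 2-fold. Markers of fibroblasts and preadipocytes went both ways, with 6 of 11 lower, 5 higher and a median of -0.25. Among all genes 49.3% were lower. The summed signal of the fibroblast and preadipocyte list was 15.16 and 15.18 on the log2 scale. The part of either list's cells in the binding protein values was not tested.

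Igfbp3 and Igfbp5 encode the binding proteins that carry IGFs in blood in a complex with the acid-labile subunit. Igfbp3 had 7.43 and 7.16 on its brightest probe set and 7.46 and 6.91 on its other, differences of -0.27 and -0.56. Igfbp5 had 11.35 and 11.02 on its brightest probe set, and 8.06 and 8.02 on the other. Both genes were thus lower on both probe sets, but Igfbp5 by only -0.03 on the dimmer one. Smooth muscle and pericyte markers, 9 of 10 lower with a median of -1.30, and skeletal muscle markers, 9 of 10 lower with a median of -1.57, moved the same way, and their part was not tested.

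**Figure D2:**
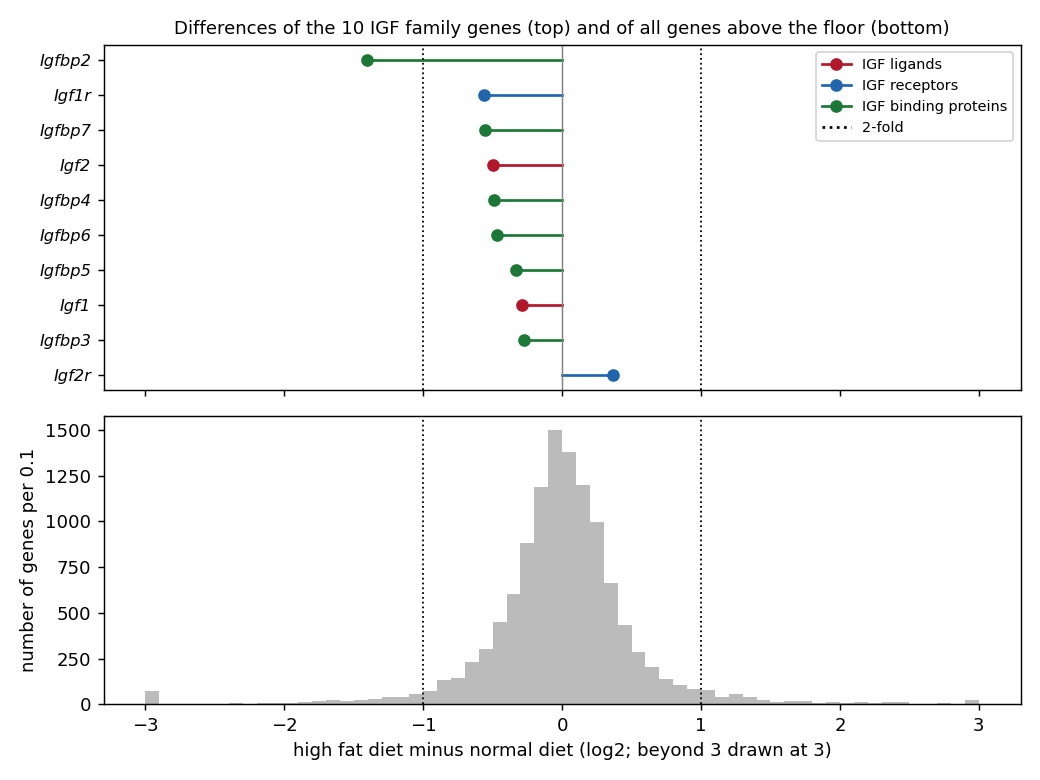
Top: difference between the diets (high fat diet minus normal diet, log2) of each of the 10 genes by its brightest probe set, coloured by role. Bottom: number of genes per 0.1 of the same difference over all 11778 genes above the floor. Igfbp2 at -1.40 lies beyond the dotted 2-fold line, the other 5 binding proteins lie between -0.56 and -0.27, and Igf2r at 0.37 is the only point right of 0.

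Some binding protein genes are neighbours in the mouse genome, Igfbp2 next to Igfbp5 and Igfbp1 next to Igfbp3, by RefSeq's gene order, while Igfbp4, Igfbp6 and Igfbp7 have no such neighbour. Igfbp1 is not among the 10 genes, but it is the liver-specific member of the family, repressed by insulin. Its only probe set went from 6.17 to 3.55, at least 2.33-fold lower, with a mean under the floor. Beside it, 13 of 14 hepatocyte markers were lower on the HFD32 array. The part of liver RNA or of insulin in the Igfbp1 value was not tested. The 250 bases before the start site are shown for the neighbours Igfbp2 and Igfbp5, which differed by -1.40 and -0.33, for Igfbp7 and for Igfbp1, because these genes moved in the same direction and their upstream sequences differ plainly. They are from RefSeq (GRCm38.p6), 5′ to 3′ on the gene's strand: Igfbp2 at chr1:72824230-72824479 (+ strand), Igfbp5 at chr1:72874866-72875115 (- strand), Igfbp7 at chr5:77408046-77408295 (- strand) and Igfbp1 at chr11:7197537-7197786 (+ strand). Capitals mark matches on either strand to the GC box GGGCGG, the TATA box TATANA and CAAAACA, a core of the insulin response element known from the Igfbp1 promoter.
Igfbp2: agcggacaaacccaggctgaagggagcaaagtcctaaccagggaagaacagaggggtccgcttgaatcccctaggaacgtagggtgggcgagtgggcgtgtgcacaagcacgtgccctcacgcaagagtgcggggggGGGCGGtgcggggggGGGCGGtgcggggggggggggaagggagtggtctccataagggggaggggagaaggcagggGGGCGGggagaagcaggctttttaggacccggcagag
Igfbp5: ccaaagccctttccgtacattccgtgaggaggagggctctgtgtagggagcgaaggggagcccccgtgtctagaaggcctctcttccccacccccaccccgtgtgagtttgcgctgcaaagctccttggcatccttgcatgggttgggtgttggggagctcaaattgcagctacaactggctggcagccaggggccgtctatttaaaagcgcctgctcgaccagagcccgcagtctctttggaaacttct
Igfbp7: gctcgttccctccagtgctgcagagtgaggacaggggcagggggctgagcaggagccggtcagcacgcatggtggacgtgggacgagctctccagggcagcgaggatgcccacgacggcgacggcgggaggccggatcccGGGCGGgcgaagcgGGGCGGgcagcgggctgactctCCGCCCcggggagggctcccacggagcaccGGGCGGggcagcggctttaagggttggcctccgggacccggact
Igfbp1: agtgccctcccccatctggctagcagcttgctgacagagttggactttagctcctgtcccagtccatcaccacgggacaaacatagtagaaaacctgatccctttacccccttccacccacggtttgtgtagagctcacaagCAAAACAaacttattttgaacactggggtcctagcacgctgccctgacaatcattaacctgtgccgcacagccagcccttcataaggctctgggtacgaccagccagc

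The Igfbp2 window held 3 GC boxes, the nearest starting 37 bases before the start site, and the Igfbp7 window held 4. The Igfbp5 window held none of the 3 motifs as spelled. The Igfbp1 window held the insulin response element core once, starting 108 bases before the start site. No capitals of different motifs overlap. GC content was 67.2% for Igfbp2, 58.8% for Igfbp5, 74% for Igfbp7 and 53.2% for Igfbp1, against a median of 52.4% over 32851 windows of the same length. Of those windows 32.7% held a GC box, 22.6% a TATA box and 5.56% the insulin response element core. All 10 genes were matched in the table, with 14 windows, and 5 had a GC box in at least 1 window, 3 a TATA box and 0 the insulin response element core. The family was counted by gene and the shares by window, so they are not like for like. A match describes the letters only, and genes that were lower stood both among those with a GC box and among those without.

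Genes that set how much IGF is free differed more widely than the family itself. Of 19 listed genes 15 were above the floor, 9 lower and 6 higher, with a median of -0.23. The 9 of 15 lower stand beside 49.3% of all genes. At 2-fold 5 were lower and 2 higher, where 3.29% and 3.28% of all genes were, the same background as for the lists that follow. The lowest were Plg, Vtn and Mmp9. Plg encodes plasminogen, whose active form plasmin cuts binding proteins, and had 8.76 and 5.24, 11.5-fold lower. Vtn, which encodes vitronectin, a matrix protein that binds IGF-II and IGFBP-5, had 9.28 and 7.01, 4.83-fold lower. Both are made mainly in liver, and beside them stand the hepatocyte values given above, whose part in these differences was not tested. Mmp9, a gelatinase of neutrophils and macrophages, had 7.72 and 6.03, and its 2 probe sets differed by -1.69 and -1.08.

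The highest of these genes were Mmp3, Igfals and Ctsd. Mmp3 encodes stromelysin, a protease that can cut IGFBP-3, and had 5.62 and 7.81, 4.56-fold higher. Igfals encodes the acid-labile subunit that holds IGF and IGFBP-3 or IGFBP-5 in the circulation, and it had 8.82 and 9.84, 2.03-fold higher on its only probe set. Igfals is known as a liver gene, and 13 of 14 hepatocyte markers were lower on the HFD32 array. The part of liver RNA in the Igfals value was not tested. Pappa, the protease that cuts IGFBP-4, lay within background on both arrays, at 4.76 and 4.73. Stc2, whose product inhibits that protease, had 7.39 and 7.02, and its 3 probe sets were lower by -0.55 to -0.35.

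The growth hormone axis, which drives Igf1 transcription in liver and fat, had a median of -0.20, or -0.02 with no floor. Of its 9 genes above the floor 7 were lower and 2 higher, where 49.3% of all genes were lower. At 2-fold 1 was lower and 1, Igfals, was higher. Ghr, the growth hormone receptor, had 13.49 and 13.28, and its 3 probe sets differed by -0.27 to -0.21. Cish, a feedback inhibitor induced by STAT5, had 7.98 and 6.66, 2.50-fold lower, and Socs2, another such inhibitor, had 7.84 and 7.42, with -0.71 on its other probe set above the floor. The kinase gene Jak2 differed by -0.37, whereas Ptpn1, a phosphatase that acts on JAK2 and on the insulin and IGF-I receptors, was higher by 0.36. Socs3, next below Ptpn1, had -0.02.

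Genes of IGF and insulin receptor signalling went both ways. Of 31 genes with a probe set 30 were above the floor, 17 lower and 13 higher, with a median of -0.07. Among all genes 49.3% were lower and 49.9% higher. At 2-fold 1 of the 30 was lower, Irs1, and 0 were higher, where 3.29% and 3.28% of all genes were. Irs1, the docking protein shared by the insulin and IGF-I receptors, had 11.03 and 9.90, 2.18-fold lower on its only probe set. Pik3r1, the regulatory subunit of phosphatidylinositol 3-kinase, had 10.75 and 9.80, and all 4 of its probe sets were lower, by -1.01 to -0.29. Rictor, of the mTOR complex that phosphorylates AKT, differed by -0.69. Insr, the insulin receptor, differed by -0.65 on its only probe set above the floor. Igf1r had -0.56 by its brightest probe set and -0.04 by the median of its probe sets. The highest were the adaptor Grb2 at 0.51, Irs3, a docking protein of rodent fat cells, at 0.48 and Grb14, an inhibitor of the insulin receptor, at 0.41. Irs2 had 7.83 and 7.93, and the inhibitory adaptor Grb10 had 9.63 and 9.54.

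**Figure D3:**
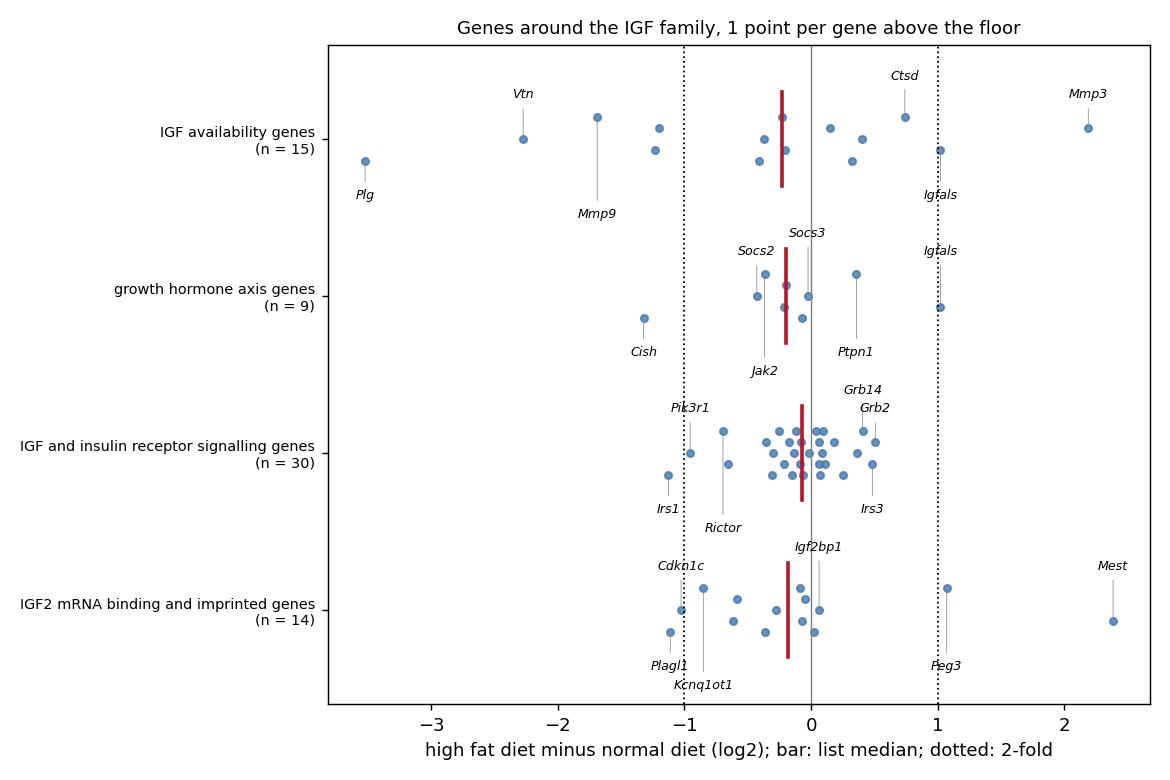
Difference between the diets (high fat diet minus normal diet, log2) of the genes above the floor in 4 lists around the IGF family, 1 point per gene, with the list median as a bar, the 2-fold lines dotted and the 3 highest and 3 lowest genes named. The signalling genes gather near 0 with Irs1 at -1.13, while the availability genes spread from -3.52 to 2.19.

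Imprinted genes and the binding proteins of Igf2 mRNA went both ways. Of 20 genes with a probe set 14 were above the floor, 10 lower and 4 higher, with a median of -0.18, and at 2-fold 2 were lower and 2 higher. Mest, a hydrolase gene of expanding fat cells, had 10.41 and 12.79, 5.22-fold higher. Peg3, a zinc finger gene, had 8.97 and 10.04, and its 3 probe sets above the floor were higher by 1.07 to 1.43. Plagl1, a zinc finger regulator of Igf2 and other imprinted genes, had 12.33 and 11.22, and its 3 probe sets were lower by -1.52 to -1.11. Cdkn1c, a growth-restraining cyclin kinase inhibitor of the same imprinted cluster as Igf2, was 2.04-fold lower, and Kcnq1ot1, a noncoding RNA of that cluster, 1.80-fold lower. Igf2bp1, next below Peg3, differed by 0.06. Mest and Peg3 are paternally expressed, as Igf2 and Plagl1 are, so paternally expressed genes stood on both sides.

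The tissue label was checked against 12 adipocyte markers, all above the floor. Fabp4, the fatty acid carrier of fat cells, had 14.24 and 14.21, and Adipoq, which encodes adiponectin, had 14.21 and 14.12. Both lay near the highest signals of the arrays, where differences may be compressed. The median of the 12 markers was -0.07, with 10 lower and 2 higher, 1 of them at least 2-fold higher. Markers of other tissues differed between the arrays by more than the IGF family did. The pancreas list had a median of -2.66, or -2.49 with signals within background, which 4 of its 8 genes had on the HFD32 array, raised to it, and 6 of its 8 genes were lower by 2-fold or more. Epididymis and testis markers went both ways, with 5 of 10 higher and 4 lower at 2-fold. The higher were Gpx5, Adam7, Lcn9, Cst12 and Lcn8, by 4.03 to 5.11. All of them but Gpx5 lay within background on the CE-2 array, so their differences are not exact. The lower were Tnp1, Prm1, Prm2 and Defb42, by -3.08 to -1.52, with Tnp1 within background on the HFD32 array.

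**Figure D4:**
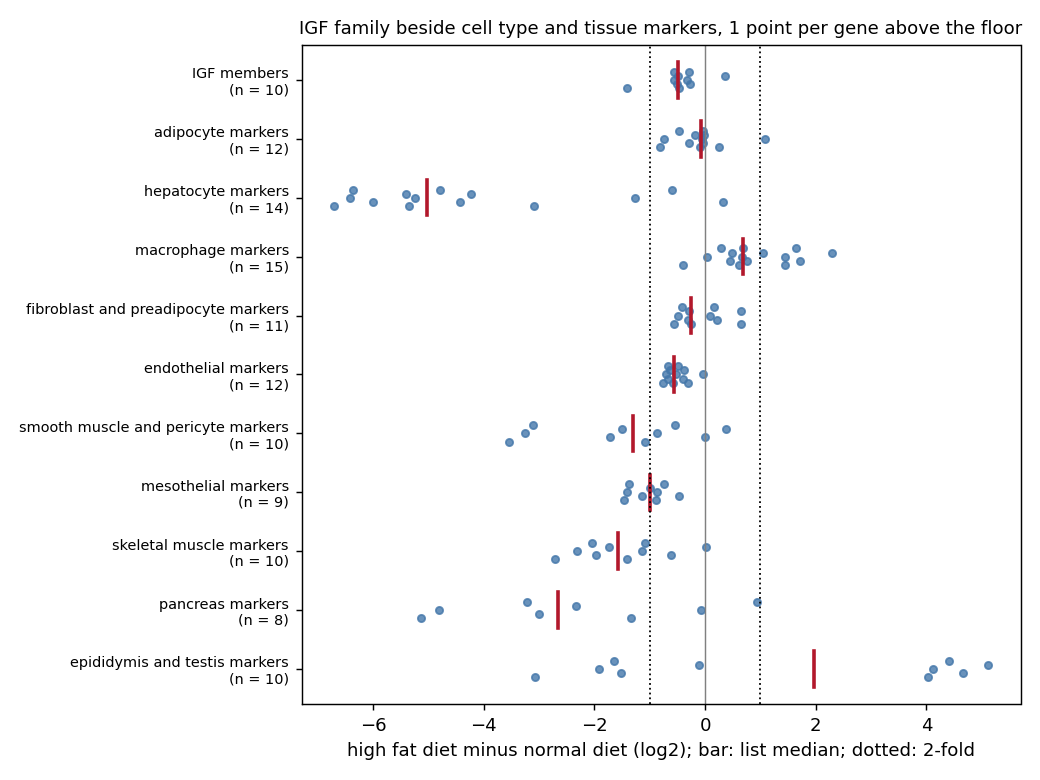
Difference between the diets (high fat diet minus normal diet, log2) of the 10 IGF family genes and of 10 marker lists, 1 point per gene above the floor, with the list median as a bar and the 2-fold lines dotted. The IGF family has a median of -0.48, or -0.18 with the median of a gene's probe sets. The endothelial markers lie at -0.56, the hepatocyte markers at -5.02 (-4.32 with signals within background raised to it) and the macrophage markers at 0.69.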

How the data were processed

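RNA of adipose tissue, pooled from 3 mice per diet, was measured on 2 arrays. The authors deposited log2 signals made with RMA, per the submitters' processing notes, which give no version of it. Values ran from 2.04 to 14.28, hence log2. The sorted columns differ nowhere by more than 0.14, so the arrays had been made nearly alike, which removes any change in total RNA. GEO's annotation of the platform, possibly outdated, named the probe sets: 34958 had 1 symbol, 932 several and 9160 other than controls none. Entrez IDs of 34754 were found in RefSeq (GRCm38.p6), and no symbol changed. The 64 control probe sets were left out. List members without a probe set of 1 symbol were not analysed here. Named outside the family are the 3 highest and 3 lowest genes of each list, genes always reported, up to 2 bright markers, and Airn. The epididymis and testis markers past 2-fold are named as well. "At least" marks a ratio computed against background. Counting of 2-fold differences was checked on simulated data with shifts well past 2-fold, so the check does not cover differences near 2-fold. The members and lists were chosen with earlier results of these data known. Python 3.11.15 and pandas 2.3.3 were used.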

Additional observations from a re-analysis of the deposited data

How the results depend on the processing

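The alternatives run were the median of a gene's probe sets, no _x_at or _s_at probe sets, a floor at the 75th percentile, no floor, quantile normalization and signals under background raised to it. With the median of probe sets the family median was -0.18 over 9 genes, and Igf1 had 0.03, Igf1r -0.04 and Igfbp7 0.08. With the higher floor, which leaves out Igfbp2 and 3 other members, 0 of 6 were at least 2-fold lower, and among all genes 190 were higher and 132 lower, against 386 and 388. Without _x_at and _s_at probe sets Igfbp5 had -0.03 and Igfbp3 -0.56. Over the alternatives the binding protein median ran from -0.52 to -0.44 and Igfbp2 from -1.40 to -1.36. The signalling list's median ran from -0.07 to 0.09 and so changed sign. The median of the growth hormone axis genes ran from -0.20 to -0.02, the latter with no floor. With 1 array per diet, no replicate could be left out, and the number of arrays limits the precision. No paired analysis was possible because each diet has 1 array.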

Other observations

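Noncoding transcripts that overlap the ligand genes were measured as well and are given as values, chosen after they were seen. Igf1os, which overlaps Igf1, had 5.83 on the CE-2 array and 5.33 on the HFD32 array, a difference of -0.50. Igf2os, which overlaps Igf2, had 5.27 and 5.68, a difference of 0.41, opposite in sign to the -0.50 of Igf2. Both lie close to the floor. Insulin-degrading enzyme, Ide, which also degrades IGF-II, was higher on 4 of 5 probe sets above the floor, with differences from -0.05 to 0.31. Ccn1, a matrix protein gene with a domain like that of the IGF binding proteins, had 4 probe sets above the floor that went both ways, from -0.26 to 0.70, and its relative Ccn2 differed by 0.30.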
